A study of Mus musculus with 10 samples.

Results

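The junction genes of the intercalated disc analysed here were Gja1, Gja5 and Gjc1 of gap junctions, Cdh2 and Ctnna3 of adherens junctions, and Dsp, Pkp2, Dsg2, Dsc2 and Jup of desmosomes. The rule that chose these 10 genes names them and uses no measured value, but it was written with earlier results of these data known. They are 10 of 56748 gene identifiers in the count tables. All 10 were among the 15454 genes with enough counts to be tested. RNA was sequenced from whole hearts, atria and ventricles together, of 5 male wild-type C57BL/6 mice after forced training and of 5 sedentary male wild-type C57BL/6 mice of the same age, with 1 library per heart. All mice were bought at an age of 8 weeks and rested before the experiment began. After 1 week of getting used to the treadmill, training mice ran for 8 weeks at 15 m/min, 120 min a day, on 5 days a week. By the study's methods, mice of both groups also underwent PET scans under isoflurane with a radioactive glucose tracer. Sedentary mice served as controls, and the comparison asks which junction genes differ in RNA level after endurance training.

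Cardiomyocytes are joined end to end at the intercalated disc. Gap junctions there are channels built from connexins and pass current from cell to cell. Adherens junctions tie the actin cytoskeleton of neighbouring cells together through cadherins and catenins, and desmosomes tie their desmin filaments through desmosomal cadherins, plakophilin, plakoglobin and desmoplakin. In heart muscle these structures mix into a composite junction, and inherited defects of desmosomal genes are a known cause of arrhythmogenic cardiomyopathy.

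Reads assigned to genes came to between 29461697 and 35945417 per training heart and between 35196993 and 39431030 per sedentary heart, and each junction gene was read at least 443 times in every heart. Values are given as CPM, the counts of a gene scaled to a library of fixed size. The tissue label held up against its markers, with Myh6, the main myosin heavy chain of the adult mouse heart, between 26829 and 31128 CPM and the epithelial keratin Krt5 at 0 in all 10 hearts. Krt5 was the only one of 5 epithelial markers at 0 throughout, and the keratin Krt8 stood between 0.96 and 2.78 CPM. Markers were called at an FDR below 0.1 in edgeR, as were 2.75% of all tested genes higher and 4.26% lower. The 8 atrial markers summed to between 5230 and 7850 CPM in training hearts and between 2892 and 7010 CPM in sedentary hearts. All 8 had a log2 fold change above 0, and 4 were called higher. The summed level of the 8 cardiomyocyte markers lay between 60155 and 63300 CPM after training and between 63388 and 72013 CPM in sedentary hearts. Mybpc3 alone had a log2 fold change above 0, and 1 of the 8, the actin gene Actc1, was called lower. Endothelial markers also summed to less, 757 to 825 CPM against 841 to 886 CPM, with 2 of 6 above 0 and 1 called lower. Fibroblast markers summed to between 1093 and 1356 CPM against 958 to 1160 CPM, with all 6 above 0 and 1 called higher. Of the other marker lists, conduction system markers (48.5 to 86.9 CPM against 45.4 to 67.3 CPM) held 1 gene called higher. All 4 of its tested genes were above 0. Arterial endothelium (79.1 to 91.6 CPM against 82.3 to 100.7 CPM) held 1 called lower, with 2 of 5 above 0. Mural cells (1137 to 1294 CPM against 1161 to 1335 CPM) held 1 of each, with 3 of 6 above 0. Macrophage, epicardial, epithelial, Schwann cell, adipocyte, erythroid and skeletal muscle lists held no called gene and overlapped between the groups. In whole-heart RNA, fewer cells of a type and less RNA per cell cannot be told apart.

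The connexin promoters are shown because they include Gja1, the junction gene that edgeR called. Each line gives the 250 bases before the start of the canonical GENCODE transcript, read from the GRCm39 genome, 5′ to 3′ on the strand of the gene, with motif matches in capitals. Gja1 is from chr10:56253170-56253419 (plus strand), Gja5 from chr3:96939461-96939710 (plus strand) and Gjc1 from chr11:102710215-102710464 (minus strand). The Gja5 and Gjc1 stretches and part of the Gja1 stretch lie inside the annotated genes, which have other transcripts that start farther upstream.
Gja1: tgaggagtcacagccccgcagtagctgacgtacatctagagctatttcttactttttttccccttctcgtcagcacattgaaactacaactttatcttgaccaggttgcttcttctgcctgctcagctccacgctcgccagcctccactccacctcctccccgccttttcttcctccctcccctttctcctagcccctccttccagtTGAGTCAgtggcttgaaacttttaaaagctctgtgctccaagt
Gja5: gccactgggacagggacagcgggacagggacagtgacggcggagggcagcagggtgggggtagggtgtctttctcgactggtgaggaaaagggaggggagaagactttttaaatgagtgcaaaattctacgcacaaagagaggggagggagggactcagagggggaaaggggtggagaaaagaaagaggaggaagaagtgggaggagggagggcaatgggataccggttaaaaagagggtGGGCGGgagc
Gjc1: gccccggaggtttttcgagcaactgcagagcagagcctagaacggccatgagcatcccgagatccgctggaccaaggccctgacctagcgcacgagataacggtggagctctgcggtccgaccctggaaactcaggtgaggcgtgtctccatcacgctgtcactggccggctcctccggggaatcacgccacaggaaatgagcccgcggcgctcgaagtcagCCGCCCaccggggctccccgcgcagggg
The capitals in Gja1 are an AP-1 motif (TGACTCA, here on the other strand), 43 to 37 bases before the start, and among the 10 junction genes this motif was found in Gja1 alone. It stood in 4.03% of 21630 promoters of that length. The capitals in Gja5 and Gjc1 are GC boxes (GGGCGG), on the gene strand in Gja5 and on the other strand in Gjc1. GC boxes were found in 7 of the 10 junction genes and in 36.4% of all promoters. Searched on both strands, a TATA box (TATAAA, 11.9% of promoters) and an E-box (CACGTG, 6.29%) were in none of the 10, a T-box site (AGGTGTG, 5.02%) and an NKX2-5 motif (TNAAGTG, 10.1%) were in Dsp, and a TEAD motif (CATTCC, 12.1%) was in Ctnna3 and Dsg2. GC content was 51.2% in the Gja1 promoter, 57.6% in Gja5 and 66.0% in Gjc1, against a median of 53.2%. A match of letters does not show that a factor binds there.

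Gja1 (ENSMUSG00000050953, chromosome 10 of GRCm39, 56253241 to 56278609), which encodes connexin 43, the main connexin of working ventricular muscle, was higher after training. It stood at 278, 300.1, 304, 271 and 243 CPM in training hearts 1 to 5. In sedentary hearts 1 to 5 it stood at 226, 228, 203, 179 and 236 CPM. The lowest training heart lay above the highest sedentary heart, so the groups did not overlap. The means were 279 ± 24.6 CPM and 215 ± 23.3 CPM (SD, n = 5 each), a difference of 30.1% of the sedentary mean. The log2 fold change was 0.38, with a standard error of 0.077 and a 95% confidence interval from 0.21 to 0.55 (FDR = 0.0223, quasi-likelihood test in edgeR, adjusted by Benjamini-Hochberg over all 15454 genes). Gja1 was called again in each of 10 fits that left out 1 heart, with log2 fold changes between 0.32 and 0.43.

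Gja1 alone among the 10 junction genes was called at an FDR below 0.1, and none was called lower. That is 10.0% of the 10 genes, beside 7.01% of all tested genes called in either direction, 2.75% higher and 4.26% lower. Gja1 was also the only junction gene without overlap of the groups, beside 5.06% of all tested genes, 2.12% higher and 2.94% lower. The median log2 fold change over the 10 genes was 0.0035, with 5 above 0 and 5 below, and over all tested genes it was 0.00026. By DESeq2's Wald test, 3 junction genes were called, Gja1, Gja5 and Dsg2, beside 9.53% of all tested genes. With library totals alone in place of edgeR's TMM factors 4 were called, Dsc2 besides these, against 8.85% of all tested genes. That scaling moved the median of all tested genes up by 0.053 on the log2 scale. It turned 425 higher and 659 lower calls into 1029 higher and 339 lower calls.

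**Figure D1:**
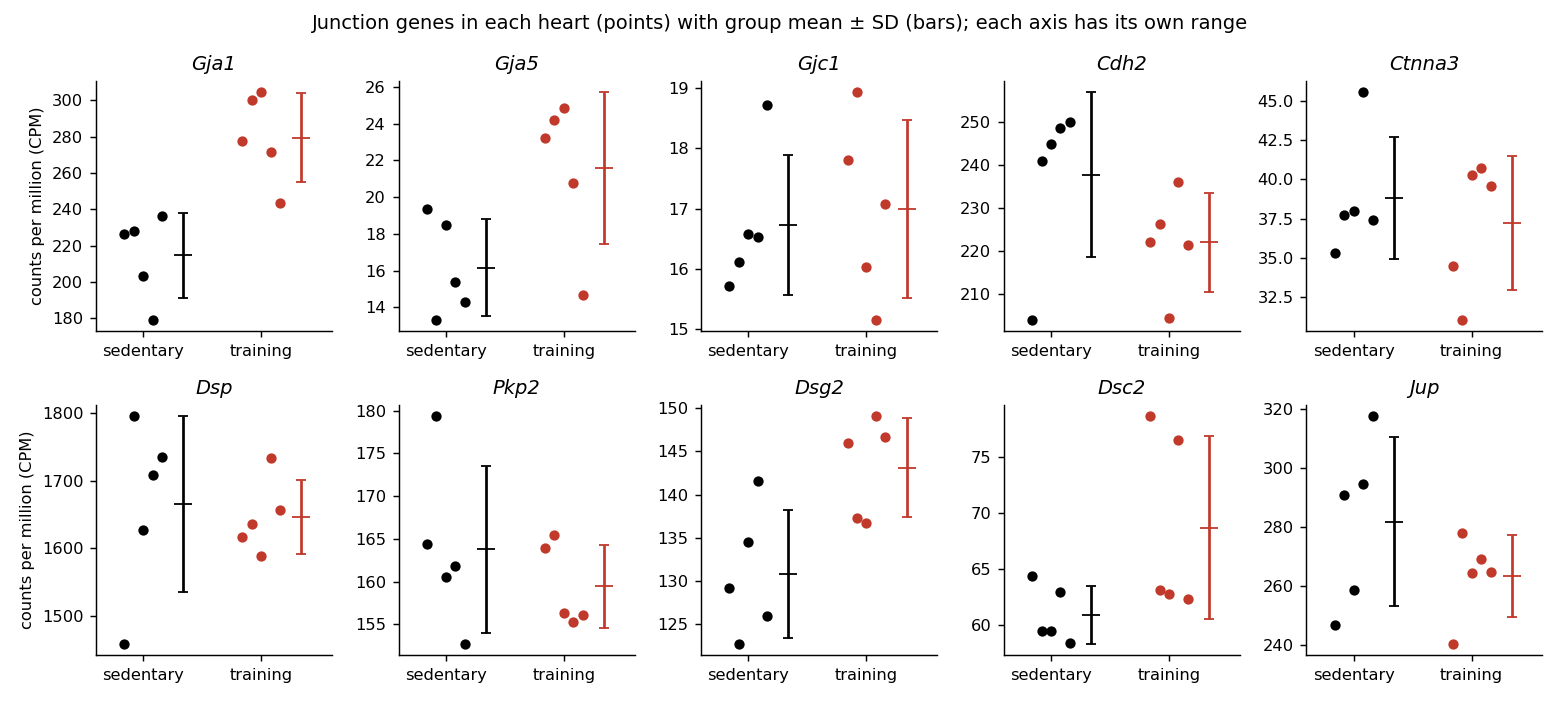
CPM of the 10 junction genes in each of 5 sedentary (black) and 5 training (red) hearts, with the mean ± SD of each group as a bar and a separate vertical range for each gene that does not start at 0. The training hearts of Gja1 sit between 243 and 304 CPM, all above the sedentary hearts at 179 to 236 CPM, and the groups of the other 9 genes overlap.

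Gja5 (ENSMUSG00000057123, chromosome 3, 96812009 to 96984732) encodes connexin 40, a connexin of atrial muscle, the fast conduction system and arterial endothelium. It stood at 23.2, 24.2, 24.9, 20.8 and 14.7 CPM in training hearts 1 to 5 and at 19.4, 13.3, 18.5, 15.4 and 14.3 CPM in sedentary hearts 1 to 5. Training hearts 1 to 4 lay above every sedentary heart, and training heart 5 lay among the lower sedentary hearts. Its log2 fold change of 0.42 was no smaller than that of Gja1, but the standard error of 0.13 was wider (95% confidence interval 0.13 to 0.71) and the FDR of 0.108 in edgeR did not pass. Gja5 passed without training heart 5 (0.53, FDR = 0.0321 in edgeR), without sedentary heart 1 (0.49, FDR = 0.0559 in edgeR) and with DESeq2 (0.42, FDR = 0.0364). It did not pass in 14 of 20 alternative fits. Among fits without 1 heart only the 2 named passed, and the FDR in edgeR reached 0.229 without training heart 3. Its exons share 165 bases with those of Gpr89 on the opposite strand, and 94.9% of its reads lay on its own strand, against at least 98.7% in the other junction genes.

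Gjc1 (ENSMUSG00000034520, chromosome 11, 102686879 to 102710532) encodes connexin 45, known from the sinoatrial and atrioventricular nodes. Its training hearts ranged from 15.2 to 18.9 CPM with a median of 17.1 CPM, and its sedentary hearts from 15.7 to 18.7 CPM with a median of 16.5 CPM. The groups overlapped almost fully, and the log2 fold change of 0.02 had a 95% confidence interval from −0.12 to 0.17 (FDR = 0.887 in edgeR). A rise of Gjc1 as large as the Gja1 estimate lies outside that interval.

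The adherens junction genes did not pass the test. Cdh2 (ENSMUSG00000024304, chromosome 18, 16700793 to 16942381), N-cadherin, the classical cadherin of cardiomyocytes, stood at 222, 226, 204, 236 and 221 CPM in training hearts and at 204, 241, 245, 249 and 250 CPM in sedentary hearts 1 to 5. All 5 training hearts lay below the sedentary mean of 238 ± 19.2 CPM, but sedentary heart 1 was as low as the lowest training heart. Against that spread, the log2 fold change was −0.10 (95% confidence interval −0.22 to 0.02, FDR = 0.367 in edgeR). Without sedentary heart 1 it was −0.15 and was called (FDR = 0.0741 in edgeR). Ctnna3 (ENSMUSG00000060843, chromosome 10, 63265877 to 64846348), αT-catenin, which links cadherin complexes to actin and binds plakophilin-2, ranged from 31.1 to 40.7 CPM in training hearts and from 35.3 to 45.5 CPM in sedentary hearts. Its log2 fold change was −0.06 (95% confidence interval −0.24 to 0.12, FDR = 0.742 in edgeR).

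Of the desmosomal genes none passed the test. Dsg2 (ENSMUSG00000044393, chromosome 18, 20691074 to 20737581), desmoglein-2, the adhesive cadherin of cardiac desmosomes, stood at 146, 137, 137, 149 and 147 CPM in training hearts and at 129, 123, 135, 142 and 126 CPM in sedentary hearts 1 to 5. All 5 training hearts lay above the sedentary mean of 131 ± 7.44 CPM, and sedentary heart 4 alone lay within the training range. This gave a log2 fold change of 0.13 with a standard error of 0.046 (95% confidence interval 0.03 to 0.23, FDR = 0.137 in edgeR and 0.0787 in DESeq2). Without sedentary heart 4 it was 0.16 and was called (FDR = 0.0931 in edgeR). Dsc2 (ENSMUSG00000024331, chromosome 18, 20163675 to 20192717), desmocollin-2, its partner cadherin, stood at 78.7, 63.2, 62.8, 76.6 and 62.3 CPM in training hearts and at 64.4, 59.5, 59.4, 62.9 and 58.4 CPM in sedentary hearts. Training hearts 1 and 4 stood apart, and the other training hearts lay within the upper sedentary range. Dsc2 had a log2 fold change of 0.17 (95% confidence interval 0.02 to 0.32, FDR = 0.183 in edgeR).

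Dsp (ENSMUSG00000054889, chromosome 13, 38335230 to 38382553) encodes desmoplakin, which anchors desmin filaments to the plaque. Its training hearts ranged from 1589 to 1734 CPM and its sedentary hearts from 1459 to 1796 CPM, so that every training value fell inside the sedentary range. For Dsp the log2 fold change was −0.02 (95% confidence interval −0.14 to 0.10, FDR = 0.904 in edgeR). Pkp2 (ENSMUSG00000041957, chromosome 16, 16031144 to 16090586), plakophilin-2, the plakophilin of heart muscle, lay between 155 and 165 CPM after training and between 153 and 179 CPM in sedentary hearts, with a log2 fold change of −0.04 (95% confidence interval −0.13 to 0.06, FDR = 0.683 in edgeR). Jup (ENSMUSG00000001552, chromosome 11, 100259784 to 100291103), plakoglobin, a catenin shared by desmosomes and adherens junctions, stood at 241, 278, 264, 269 and 265 CPM in training hearts and at 247, 291, 259, 295 and 317 CPM in sedentary hearts. All 5 training hearts lay below the sedentary mean of 282 ± 28.6 CPM and 4 of them within the sedentary range (log2 fold change −0.10, 95% confidence interval −0.24 to 0.04, FDR = 0.439 in edgeR). With the atrial score as a covariate Dsp and Jup lay above 0 (0.09 and 0.03), as did Dsp and Pkp2 with library totals alone (0.039 and 0.014). Over these plaque genes the intervals of the fit with TMM factors and no covariate reached no lower than −0.24 and no higher than 0.10. With the atrial score the interval of Dsp reached up to 0.23 and that of Jup up to 0.19.

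**Figure D2:**
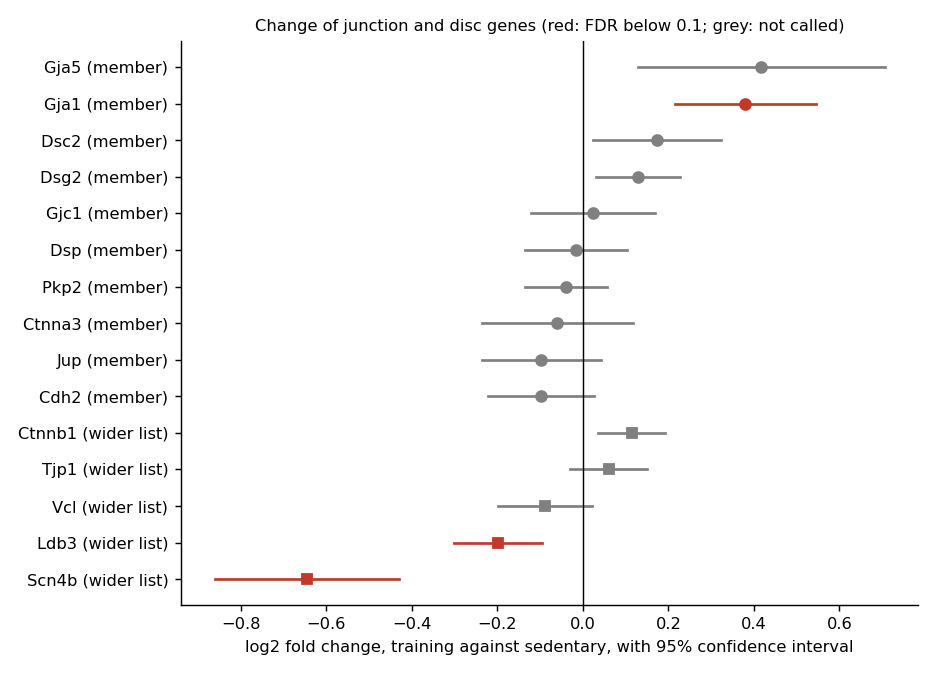
Log2 fold change, training against sedentary, with its 95% confidence interval for the 10 junction genes (circles) and 5 genes of a wider list of disc genes (squares), in red where the FDR was below 0.1. Gja1 at 0.38 is the only red circle, and Scn4b and Ldb3 are the red squares, both below 0.

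Levels between genes were compared per length, as CPM per kilobase of transcript over all 10 hearts. Dsp was highest at 177 ± 10.2 CPM per kilobase (SD, n = 10) and did not overlap with any other junction gene. Jup (87.3 ± 7.45), Gja1 (80.5 ± 13.3), Cdh2 (56.6 ± 4.2) and Pkp2 (55.4 ± 2.61 CPM per kilobase) followed, and in this stretch each gene overlapped with the next. Dsg2 at 24.3 ± 1.6 and Dsc2 at 15.1 ± 1.64 CPM per kilobase each stood clear of their neighbours. Ctnna3 at 10.7 ± 1.11, Gjc1 at 8.79 ± 0.656 and Gja5 at 6.30 ± 1.45 CPM per kilobase were lowest, and among these each overlapped with the next. These ranks pool both groups. Gja1 lay above Jup in training hearts (means of 91.0 and 84.3 CPM per kilobase) and below it in sedentary hearts (69.9 and 90.2), and Pkp2 and Cdh2 were level in training hearts (54.7 and 54.6). The pooled order was the same in the TPM that RSEM gave. Spread between hearts of a group was widest for Gja5, with a coefficient of variation of 19.2% in training and 16.3% in sedentary hearts, and among training hearts narrowest for Pkp2 at 3.06%.

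**Figure D3:**
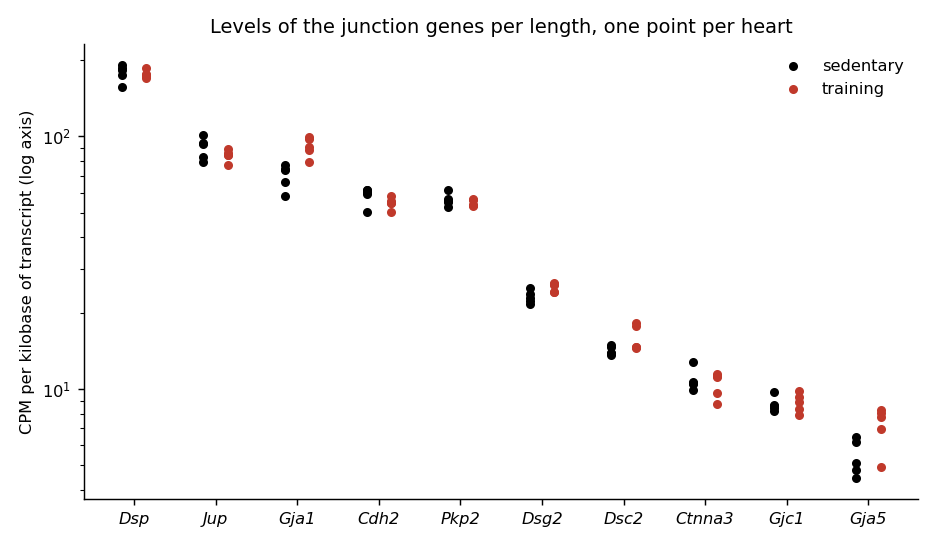
Level of each junction gene in CPM per kilobase of transcript on a log axis, with a point for each sedentary (black) and training (red) heart and the genes ordered by their mean. Dsp stands clear at 156 to 192 CPM per kilobase and Gja5 is lowest at 4.45 to 8.31.

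Ratios of junction genes within a heart do not depend on library scaling, and 5 were compared by two-sided exact permutation tests over all assignments of the hearts to groups of 5, with a smallest possible p of 0.00794. Gjc1 relative to Gja1, per length, was lower after training. The ratio was 0.103, 0.101, 0.0843, 0.0894 and 0.112 in training hearts 1 to 5 and 0.111, 0.113, 0.131, 0.148 and 0.127 in sedentary hearts. Training heart 5 lay between sedentary hearts 1 and 2, and the other training hearts lay below every sedentary heart. The geometric means were 0.0974 and 0.125, a log2 difference of −0.36 (exact permutation p = 0.0159, adjusted over the 5 ratios 0.0794). In 8 of 10 comparisons without 1 heart the adjusted p missed 0.1 (0.119 to 0.198), with log2 differences still between −0.41 and −0.30 over all 10. The ratio of Gja5 to Gja1 was alike, 0.0781 against 0.0768 (log2 difference 0.02, exact permutation p = 0.976, adjusted 0.976). Ratios within the other junctions also differed by less than the spread between hearts. Pkp2 to Dsp was 0.310 against 0.316 (exact permutation p = 0.786), Dsg2 to Dsc2 1.59 against 1.63 (exact permutation p = 0.635) and Ctnna3 to Cdh2 0.191 against 0.186 (exact permutation p = 0.786), each with an adjusted p of 0.976.

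**Figure D4:**
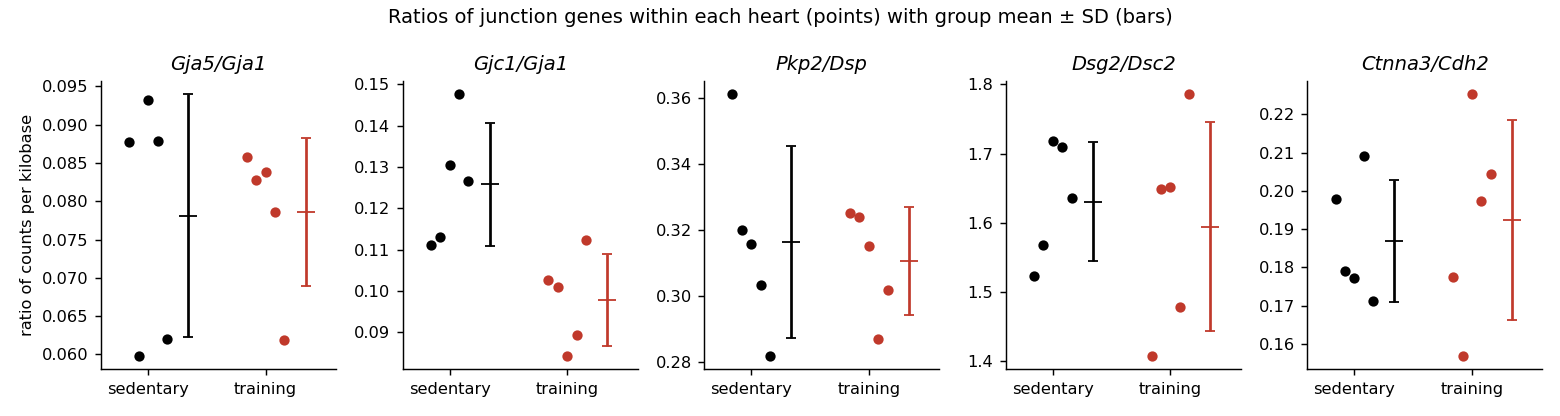
Ratio of counts per kilobase of 5 pairs of junction genes in each sedentary (black) and training (red) heart, with the mean ± SD of each group as a bar and vertical ranges that do not start at 0. The ratio of Gjc1 to Gja1 lies between 0.0843 and 0.112 in training hearts and between 0.111 and 0.148 in sedentary hearts, and the groups of the other ratios overlap broadly.

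The atrial markers differed between the groups, and they are set beside the junction genes here. Their score, the mean of centred log2 CPM over the 8 markers, was 0.36, 0.03, 0.67, 0.38 and 0.19 in training hearts 1 to 5 and 0.30, −0.92, −0.21, −0.01 and −0.77 in sedentary hearts 1 to 5. Sedentary heart 1, with a score among the training hearts, had the lowest Cdh2, Jup, Dsp, Ctnna3 and Gjc1 of its group and the highest Gja5 and Dsc2. Its Pkp2 and Dsg2 lay within the range of the other sedentary hearts. These are values of 1 heart, and an association of the score with a junction gene was not tested. Gja1 was 226 CPM in that heart and 228, 203, 179 and 236 CPM in sedentary hearts 2 to 5. With the score as a covariate the log2 fold change of Gja1 was 0.44 (standard error 0.10, 95% confidence interval 0.21 to 0.66), and its FDR was 0.126 in a fit in which edgeR called 66 genes, 0.427% of those tested. In the same fit Gja5 was 0.18 (FDR = 0.721 in edgeR), Dsg2 0.08, Cdh2 0.00, Jup 0.03 and Dsp 0.09, and no junction gene was called. Apart from sedentary heart 1, every sedentary score lay below every training score, so score and group could not be well separated. The part of atrial tissue in these differences was not tested.

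**Figure D5:**
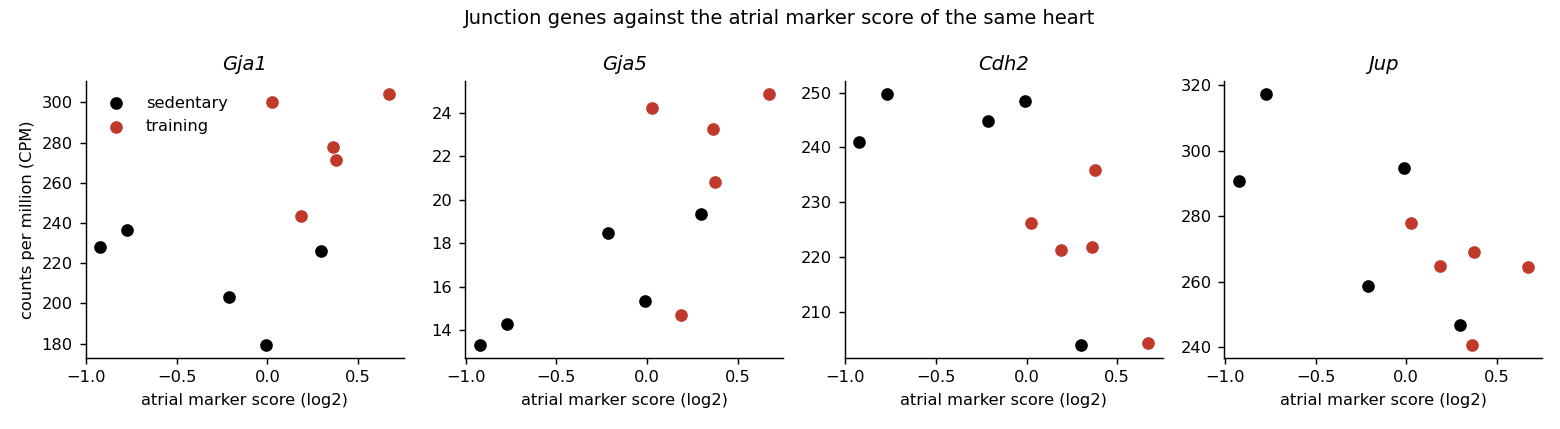
CPM of Gja1, Gja5, Cdh2 and Jup in each sedentary (black) and training (red) heart against the atrial marker score of the same heart, a mean of centred log2 CPM. Training hearts of Gja1 lie above all sedentary hearts at scores from 0.03 to 0.67, and sedentary heart 1, at a score of 0.30, lies at 226 CPM.

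Other genes of the disc came from a list of 47 genes, of which 41 had enough counts to be tested. None was called higher and 3 were called lower, 7.32% of the tested genes. Of all tested genes, 7.01% were called in either direction and 4.26% lower. All 3 belonged to the channels and scaffolds, where they were 23.1% of 13 tested genes. With library totals alone 4 were higher and 2 lower, and fits without 1 heart called between 1 (without sedentary heart 3) and 7 (without training heart 2). None of the 8 gap junction genes, 14 adherens junction genes or 6 tested desmosomal genes passed. The median log2 fold change of the 41 genes was −0.02, with 13 above 0 and 28 below. The untested desmosomal genes were Pkp1, Pkp3, Dsg1a, Dsg3, Dsc1 and Dsc3, which are known from skin, each with at most 14 reads in a heart. Dsg3 had no read in any heart.

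Scn4b, a β subunit of voltage-gated sodium channels, changed most among these genes. It stood at 24.0, 30.8, 27.8, 25.8 and 32.6 CPM in training hearts 1 to 5 and at 49.6, 48.9, 42.9, 34.3 and 44.6 CPM in sedentary hearts. The groups did not overlap, and the log2 fold change was −0.65 with a standard error of 0.10 (FDR = 0.00871 in edgeR). Ldb3, a scaffold protein of Z-discs also named cypher, fell from 1249 ± 67.8 CPM to 1088 ± 43.9 CPM without overlap (log2 fold change −0.20, FDR = 0.0406 in edgeR), and without sedentary heart 3 the log2 fold change was −0.18 and was not called (FDR = 0.116 in edgeR). With the atrial score as a covariate neither gene passed, at −0.56 for Scn4b and −0.19 for Ldb3.

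Binding partners of the junction genes gave small differences. Ctnnb1, β-catenin, the partner of N-cadherin and a transcriptional coactivator, was 389 ± 8.82 CPM against 359 ± 9.59 CPM without overlap of the groups, with a log2 fold change of 0.11 that missed the threshold (FDR = 0.102 in edgeR) and passed in DESeq2 (FDR = 0.00709). Afdn, afadin, named after its values were seen, also had groups that did not overlap, 79.0 to 83.3 CPM against 70.5 to 78.3 CPM (log2 fold change 0.10, FDR = 0.191 in edgeR). Tjp1, the scaffold ZO-1 that binds connexin 43, had a log2 fold change of 0.06 (95% confidence interval −0.03 to 0.15, FDR = 0.466 in edgeR). Vcl, vinculin, which joins adherens junctions to actin, had a log2 fold change of −0.09 (95% confidence interval −0.20 to 0.02, FDR = 0.366 in edgeR).

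The genes whose pattern over the 10 hearts was most like that of Gja1 were Btg1, Spg21 and Rap2a, with root mean square differences of centred log2 CPM of 0.101, 0.121 and 0.122, against a median of 0.251 over 8486 genes with at least 10 CPM. For Cdh2 they were Nqo1, Ogdh and Mfn2 (0.0412, 0.0441 and 0.0463, median 0.132). For Dsp they were Sema4d, Map4 and Rnf216 (0.0271, 0.0310 and 0.0355, median 0.117). A gene flat over the hearts would differ by 0.232 from Gja1, 0.103 from Cdh2 and 0.0798 from Dsp. The patterns include the difference between the groups.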

How the data were processed

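Whole-heart RNA of 5 training and 5 sedentary mice was made into directional poly-A libraries and 1 pool of them was sequenced with single reads. The authors deposited raw counts per gene of uniquely mapped reads (STAR 2.7.10a, GRCm39), per strand, and RSEM 1.3.3 expected counts, TPM and gene lengths; the strand setting of RSEM is not given in the sources used here, and the deposited FPKM were not used. Reverse-strand counts were taken, 94.9% to 95.6% of stranded counts. Lines that name no gene (multimapping 17.9% to 19.2% of reads) were left out.

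In R 4.3.3, edgeR 4.0.16 was run on all genes with filterByExpr, TMM and the quasi-likelihood F test, p-values were adjusted by Benjamini-Hochberg, and genes were called at an FDR below 0.1. CPM use TMM-corrected library sizes. CPM per kilobase use the RSEM length averaged over hearts. Symbols came from GENCODE for 56017 of 56748 identifiers. Junction genes, wider list and marker lists were chosen with earlier results of these data known. Named from the wider list were called genes, at most 12 by smallest p, and Ctnnb1, Tjp1 and Vcl, and as most like Gja1, Cdh2 and Dsp the 3 genes with the smallest root mean square difference. A gene of the wider list that these rules select is not reported here. P-values set a difference between the groups against the spread between these mice. The steps were tested on simulated data. Alternatives were DESeq2 1.42.0, other scalings, filters and counts, covariates and leaving out each heart.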

Additional observations from a re-analysis of the deposited data

Results flagged for a closer look

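In 4 of 42 groups of 5 values, 1 heart stood far from the others of its group, and chance gives such a flag in about 1 in 20 groups. Gjc1 was 18.7 CPM in sedentary heart 5, with the other sedentary hearts between 15.7 and 16.6 CPM. Cdh2 was 204 CPM in sedentary heart 1, with the others between 241 and 250 CPM. Ctnna3 was 45.5 CPM in sedentary heart 4, with the others between 35.3 and 38.0 CPM. Vcl was 207 CPM in training heart 3, with the others between 177 and 184 CPM.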

How the results depend on the processing

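The count of 1 junction gene called became 3 with DESeq2, 4 with library totals alone, 2 without a filter and 0 with the atrial score as a covariate, and lay between 1 and 3 over fits without 1 heart (2 without training heart 5 or sedentary heart 4, 3 without sedentary heart 1). It was 1 under the remaining alternatives run other than the replicate block. Gja1 passed in 19 of 20 alternative fits, with FDR values from 0.000264 to 0.126. The count of 3 wider list genes became 5 with DESeq2, 6 with library totals alone (4 higher, 2 lower) and 0 with the atrial score, and lay between 1 (without sedentary heart 3) and 7 (without training heart 2), with 6 without sedentary heart 1. Over all genes, fits without 1 heart called between 512 and 1490 (3.29% to 9.58%). DESeq2 called 1473 (9.53%), library totals alone 1368 (8.85%), the fit without a filter 1065 (3.55%) and the fit with the atrial score 66 (0.427%).

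With the mouse number as a replicate block, 3 junction genes were called, Gja1, Gja5 and Dsc2, and 3 wider list genes. That fit called 7.36% of all tested genes. Deviations of hearts with the same number correlated between −0.097 and 0.159, and 3 of 10 hearts correlated best with their own number, so the numbers were not used as pairs.

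Log2 fold changes of some junction genes changed sign. With library totals alone these were Dsp (0.039) and Pkp2 (0.014), and with the atrial score Dsp (0.094), Cdh2 (0.0012, from −0.099) and Jup (0.027, from −0.097). Without 1 heart they were Gjc1 (−0.019 without training heart 2, up to 0.066), Ctnna3 (0.0036 without sedentary heart 4, down to −0.094) and Dsp (0.012 without sedentary heart 2, down to −0.061). Without 1 heart the log2 difference in Gjc1 to Gja1 lay between −0.41 and −0.30 and missed an adjusted p of 0.1 in 8 of 10 cases, up to 0.198. The other ratios crossed 0, Gja5 to Gja1 between −0.066 and 0.11, Pkp2 to Dsp between −0.064 and 0.025, Dsg2 to Dsc2 between −0.078 and 0.0079 and Ctnna3 to Cdh2 between −0.026 and 0.10. The cause of these changes was not tested. With 5 hearts a group, a difference whose interval includes 0 cannot be told from the spread between hearts.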

Other observations

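RSEM shares reads among genes that they match alike, which the unique counts leave out. By RSEM, Cdh2 had a mean of 78.0 TPM beside 56.6 CPM per kilobase from unique counts, while Pkp2, next to it in order, had 57.8 TPM beside 55.4 CPM per kilobase. TPM and CPM per kilobase are scaled differently, and the cause of the gap in Cdh2 was not tested. The log2 fold change of Cdh2 was −0.09 from RSEM counts and −0.10 from unique counts.

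The length that RSEM weights by transcript use differed most between hearts for Gja5, from 2836 to 3112 bases in training hearts and from 2717 to 3115 bases in sedentary hearts, so that the groups overlapped. For Pkp2 it lay between 2914 and 2917 bases in all 10 hearts.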
